A study of Mus musculus with 11 samples.

Results

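Pou5f1, Nanog and Sox2 encode the core transcription factors of pluripotency, and their loci were followed through an ATAC-seq experiment on 4 mouse embryonic stem cell lines. ATAC-seq cuts open DNA with the Tn5 transposase and counts the sequenced ends, so a higher count in a region means more accessible chromatin there. A region belonged to one of the 3 loci when its start lay on chromosome 17 between 35490000 and 35520000 (Pou5f1), on chromosome 6 between 122690000 and 122725000 (Nanog) or on chromosome 3 between 34640000 and 34770000 (Sox2 with its distal control region), in GRCm38 coordinates. This gave 35 of the 248336 deposited regions: 6 in the Pou5f1 window, 5 in the Nanog window and 24 in the Sox2 window. All 35 passed the filter on low counts, which left 246840 regions for testing. None of the 3 windows lies on chromosome 13, the chromosome that differs by design.

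The B6 line (B6 5-1) came from strain C57BL/6J and the D2 line (D2 5-5) from strain DBA/2J. The B6-13D2 line (QJ 6-1) came from B6.D2-(rs30079041-rs51756099)/Bakr, a B6 strain carrying a D2 interval of chromosome 13, and the D2-13B6 line (XE 2-4) from D2.B6-(rs29224292-rs13469455)/Bakr, a D2 strain carrying a B6 interval of that chromosome. By these labels the intervals of the 2 lines differ in the markers at both ends, so they need not be the same stretch. The series' design text names a different end marker for the interval of D2-13B6 than the sample labels do. All 4 lines were grown in 15% fetal bovine serum with LIF, 1 μM of the MEK inhibitor PD0325901 and 3 μM of the GSK3 inhibitor CHIR99021. B6, D2 and D2-13B6 had 3 libraries each and B6-13D2 had 2, each from 100000 cells. The labels call them technical replicates of 1 cell line per genotype. Errors and p-values therefore cover only how far libraries of 1 line spread, and an effect of genotype cannot be told apart from a difference between individual cell lines.

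Pou5f1 (also called Oct4) is a POU-domain factor, Sox2 an HMG-box factor and Nanog a homeodomain factor. Pou5f1 and Sox2 bind together to a composite DNA element, and the factors sustain their own and each other's genes through it. In mouse embryonic stem cells Pou5f1 is driven largely by a distal enhancer upstream of its promoter, Nanog by its promoter and an upstream enhancer, and Sox2 by a distant control region downstream, while the nearer Sox2 regulatory regions can drive expression in embryonic and neural stem cells.

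The composite element was searched on both strands of every region as a SOX part CNTTGT followed, after 1 base of any kind, by a POU part ATGCA. These letters were chosen knowing the published elements of these genes, so finding them here is a description and no evidence. They occurred in 3 of the 35 regions, 1 at each gene, and in 0.295% of all regions. In regions within 10% of the same width the share was 1.59% for the Pou5f1 region, 1.06% for the Nanog region and 0.426% for the Sox2 region. The matches are shown because they lie in the distal enhancer of Pou5f1, the promoter of Nanog and regulatory region 2 of Sox2, 3 elements whose accessibility is described further on. Each line gives the forward strand of GRCm38 from RefSeq with 60 bases on either side, and capitals mark the match.
Pou5f1 distal enhancer, chr17:35503992-35504123: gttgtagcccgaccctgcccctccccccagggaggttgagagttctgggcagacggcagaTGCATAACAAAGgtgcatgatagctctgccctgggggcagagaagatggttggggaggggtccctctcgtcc
Nanog promoter, chr6:122707356-122707487: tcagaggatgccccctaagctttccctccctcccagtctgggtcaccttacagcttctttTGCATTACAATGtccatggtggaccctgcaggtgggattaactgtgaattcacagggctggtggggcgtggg
Sox2 regulatory region 2, chr3:34653989-34654120: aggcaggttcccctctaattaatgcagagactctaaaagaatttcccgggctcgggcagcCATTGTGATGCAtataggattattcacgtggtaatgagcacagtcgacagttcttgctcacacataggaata
The Pou5f1 and Nanog matches read on the reverse strand and the Sox2 match on the forward strand. They lie at -1966, -73 and 3644 bp from the annotated GENCODE start of their gene.

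Single-factor letters were less selective. The octamer ATTTGCAT occurred in 2 of the 35 regions (5.57% of all regions), 1 over Pou5f1 exons and 1 in an intron of Sox2ot, the noncoding gene that surrounds Sox2. The SOX letters ATTGTT occurred in 14 of the 35 (29.1% of all regions). The 35 regions had a median width of 1364 bp against 547 bp over all regions. Among regions within 10% of the same width, the octamer occurred in 8.98% for the Pou5f1 region and in 7.46% for the Sox2ot region. For the SOX letters this share ran from 15.8% at the narrowest of the 35 regions to 86.1% at the widest. The 29.1% is therefore too low a background for the wide regions.

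The promoters also differed in base composition. The 250 bases before the RefSeq start were 62.0% G and C for Pou5f1, 52.0% for Nanog and 72.0% for Sox2. The GC box GGGCGG, the letters bound by Sp1-type factors, was found on either strand in 32.7% of 32851 RefSeq promoter windows of this length. It occurred once before Pou5f1, on the forward strand, and not before Nanog. The Sox2 window held 1 on each strand. The Pou5f1 and Sox2 promoters are shown because the Pou5f1 start region was called lower in D2-13B6 than in B6 and the Sox2 start region was not, a contrast between genes that was not tested. The Sox2 result depended on scaling, and the Nanog start region, without a GC box, was also called lower. Whether base composition has a part in these calls was not tested. Capitals mark the GC boxes on either strand.
Pou5f1 promoter, chr17:35505782-35506031: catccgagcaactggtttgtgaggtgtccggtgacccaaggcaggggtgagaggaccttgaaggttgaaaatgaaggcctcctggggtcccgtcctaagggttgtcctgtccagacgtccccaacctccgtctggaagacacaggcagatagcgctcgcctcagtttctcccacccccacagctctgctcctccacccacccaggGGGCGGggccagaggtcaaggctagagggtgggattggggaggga
Sox2 promoter, chr3:34649745-34649994: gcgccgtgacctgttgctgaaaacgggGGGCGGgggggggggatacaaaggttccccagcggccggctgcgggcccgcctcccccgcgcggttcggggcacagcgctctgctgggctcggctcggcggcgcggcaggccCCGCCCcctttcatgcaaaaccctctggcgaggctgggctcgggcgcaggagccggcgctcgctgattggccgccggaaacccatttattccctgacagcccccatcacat

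Total counts ran from 15198496 to 43042955 per library, and a single one of the 35 regions held between 18 and 2335 counts in a library. Values are given as normalised CPM, that is, counts scaled to each library's TMM-adjusted total. Regions that hold the start of a protein-coding gene took a larger share of the counts on the D2 background. The share (mean ± SD) was 24.1% ± 0.69 for B6 (n = 3), 24.2% ± 0.21 for B6-13D2 (n = 2), 29.4% ± 1.41 for D2 (n = 3) and 30.1% ± 2.63 for D2-13B6 (n = 3). This share moves with the scaling and hence with every comparison across the B6 and D2 backgrounds, and its part in the results was not tested. When libraries were scaled to their total counts, the median change over all regions shifted on the log2 scale by -0.29 in D2-13B6 against B6 and by 0.17 in D2 against D2-13B6. Scaling on gene-start regions alone shifted it by -0.58 and 0.17, and by -0.40 in D2 against B6. Ratios between regions of the same library, given further on, do not depend on scaling.

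D2-13B6 had the lowest mean in 30 of the 35 regions, and in 39.2% of all tested regions. By window these were 23 of 24 at Sox2, 4 of 5 at Nanog and 3 of 6 at Pou5f1, where D2-13B6 also had the highest mean in 1 region. B6-13D2 had the highest mean in 27 of the 35, and in 27.9% of all tested regions. A region was called different at an edgeR adjusted p-value under 0.05 over all tested regions. In D2-13B6 against B6, 17 of the 35 regions were called, all lower in D2-13B6, where 41.7% of all tested regions were called and 20.1% were called lower. The median log2 fold change of the 35 was -0.44, beside -0.13 over all tested regions and 0.64 over the 13570 tested gene-start regions. In D2 against D2-13B6, 12 of the 35 were called, all higher in D2, where 23.7% of all regions were called and 8.53% were called higher. The median was 0.34 for the 35, 0.04 over all regions and -0.20 over gene-start regions. These comparisons share the D2-13B6 libraries and so are not independent of each other. The summed level of fibroblast marker starts, given further on, was highest in the same line. The mean sum of primitive endoderm starts was highest there as well, with libraries that overlapped those of B6. In D2-13B6 against B6, 64.1% of gene-start regions were called higher. A part of other cells in the lower values was not tested.

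**Figure D1:**
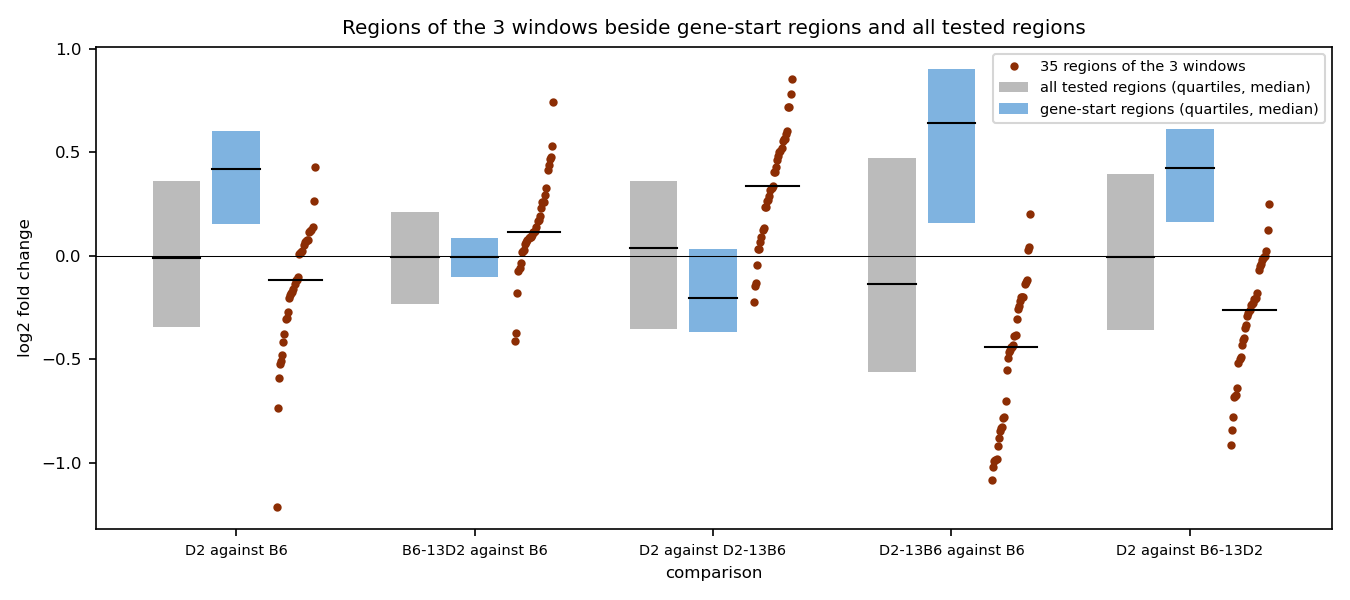
Log2 fold change of the 35 regions (points, with a bar at their median) beside all tested regions (grey) and gene-start regions (blue), in each of 5 comparisons; bars span the quartiles and black lines mark medians. In D2-13B6 against B6 the 35 regions have a median of -0.44 while gene-start regions have a median of 0.64.

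D2 differed from B6 at fewer of the regions. In D2 against B6, 5 of the 35 were called, all lower in D2, where 22.5% of all regions were called and 8.8% were called lower. The share of the 35 that was called, 14.3%, lay below the share of all regions. The count fell to 1 without D2 replicate 1, to 2 without B6 replicate 2 and to 3 without B6 replicate 1 or D2 replicate 2. Of all regions, 17.3%, 17.4%, 16.8% and 20.9% were called without these libraries, in the same order. In D2 against B6-13D2, where both lines carry the D2 interval, 5 were called, all lower in D2, where 18.8% of all regions were called and 7.24% were called lower. Without D2 replicate 1, 3 calls were made, where 14.6% of all regions were called. Leaving out a B6-13D2 library leaves that line with 1, too few to compare calls. The median log2 fold change of the 35 was then -0.29 without replicate 1 and -0.25 without replicate 2, beside -0.26 with both. Whether sequence differences between the strains changed how many reads aligned to mm10 was not tested, here or in other comparisons across backgrounds.

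**Figure D2:**
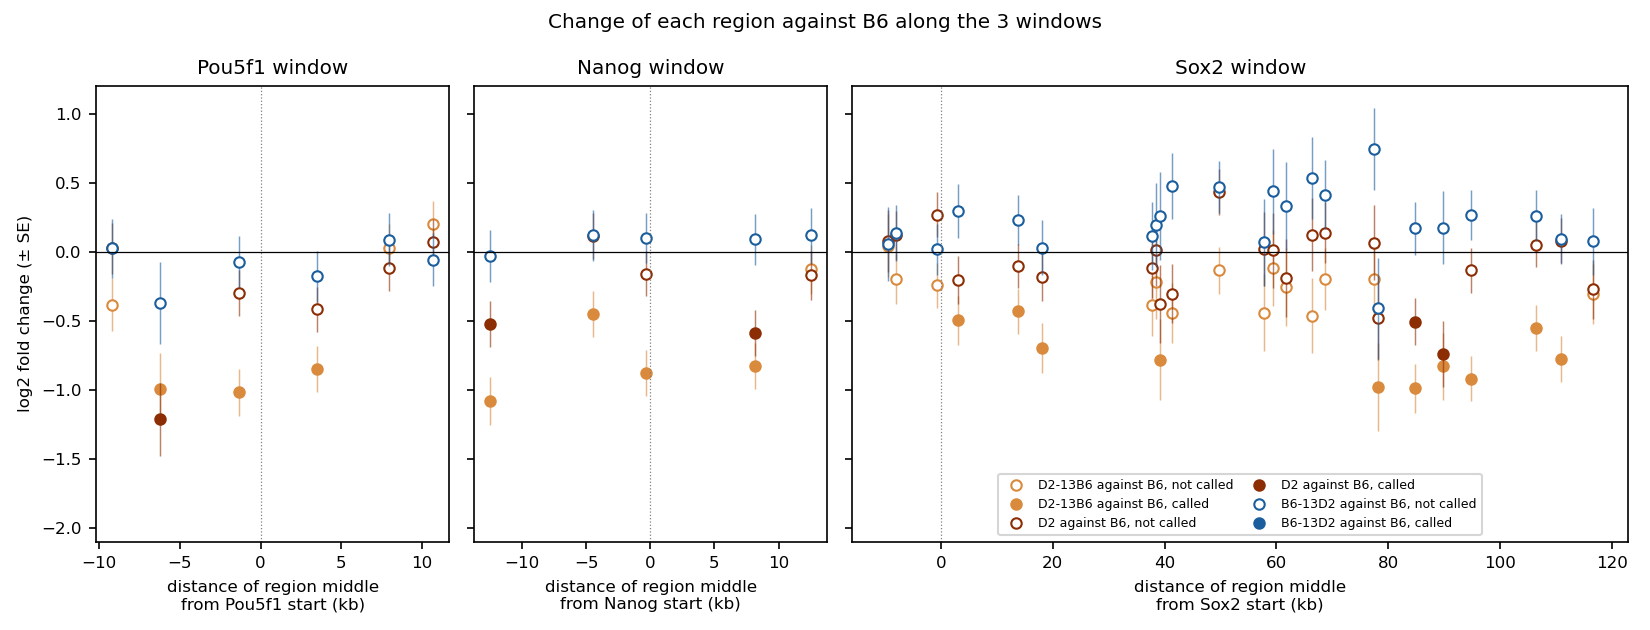
Log2 fold change against B6 (vertical axis, with its standard error) of each region along the 3 windows, by the distance of its middle from the gene's start in kb; filled points were called and open points were not. In the Pou5f1 and Nanog windows the D2-13B6 points run from -1.08 to 0.20, and no B6-13D2 point is filled in any window.

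At Pou5f1, the region that holds the start site and both upstream enhancers had its lowest values in D2-13B6. This region (chromosome 17 from 35501875 to 35507508, covering the start and first coding exon of ENSMUSG00000024406.16) had 65.6, 78.6 and 67.9 normalised CPM across the B6 libraries, 64.6 and 69.9 in B6-13D2, 59.8, 62.5 and 50.0 in D2, and 31.2, 37.6 and 35.8 in D2-13B6. Every D2-13B6 library lay below every library of the other lines, and the D2 values lay below all 3 B6 values. The mean of D2-13B6, 34.9 ± 3.30 (SD, n = 3), was 50.7% lower than that of B6, 70.7 ± 6.94 (SD, n = 3), or -1.02 as a log2 fold change (SE 0.17, edgeR adjusted p = 6.29e-07). D2, at 57.4 ± 6.61 (SD, n = 3), was 1.65 times D2-13B6 (0.72 as a log2 fold change, SE 0.17, edgeR adjusted p = 0.000558). Neighbours in the order B6, B6-13D2 and D2 did not pass the test, and D2 against B6-13D2 gave -0.23 (SE 0.18, edgeR adjusted p = 0.452). D2 against B6 gave -0.30 (SE 0.17, edgeR adjusted p = 0.208). That last difference was called with only the D2 and B6 libraries fitted (-0.30), with total counts (-0.42), with scaling on gene-start regions (-0.70) and with loess offsets that follow a region's abundance (-0.78).

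The rest of the Pou5f1 window split by position. The region over the later coding exons (from 35508741 to 35510237), chosen for mention after its values were seen, had 15.8, 18.5 and 16.4 normalised CPM across the B6 libraries, 14.1 and 15.7 in B6-13D2, 13.4, 13.1 and 11.3 in D2, and 8.55, 10.4 and 9.18 in D2-13B6. It was lower in D2-13B6 than in B6 (-0.85 as a log2 fold change, SE 0.17, edgeR adjusted p = 1.97e-05). Pou5f1 has processed copies elsewhere in the genome, so counts over its exons are less certain, here and at the first coding exon in the start region. This region also overlaps the antisense gene Gm19553. A small intergenic region with its middle at -6.25 kb (from 35499460 to 35500068) was the one region of the window called in D2 against B6. It had 2.50, 2.93 and 3.02 normalised CPM across the B6 libraries, 2.18 and 2.14 in B6-13D2, 1.19, 0.964 and 1.46 in D2, and 1.4, 0.848 and 1.99 in D2-13B6. Both D2-background lines lay below B6, with log2 fold changes of -1.22 for D2 (SE 0.26, edgeR adjusted p = 0.000264) and -0.99 for D2-13B6 (SE 0.26, edgeR adjusted p = 0.00125). Its call in D2 against B6-13D2 (-0.84 as a log2 fold change, SE 0.30, edgeR adjusted p = 0.0379) was lost with DESeq2 (-0.85). It was also lost without D2 replicate 1 (-0.84) or D2 replicate 2 (-0.65). Leaving out B6-13D2 replicate 1 or 2 gave -0.83 and -0.86.

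The neighbouring genes gave a reference inside the same window. The region that holds the shared start of Tcf19 and Cchcr1 (from 35515280 to 35518130), also chosen after its values were seen, had 31.8, 30.7 and 32.0 normalised CPM across the B6 libraries, 29.9 and 30.7 in B6-13D2, 37.0, 28.9 and 33.4 in D2, and 40.0, 40.8 and 28.1 in D2-13B6. The D2-13B6 libraries lay on both sides of the B6 libraries, and the region was called in none of the comparisons. D2-13B6 against B6 gave 0.20 (SE 0.17, edgeR adjusted p = 0.350), was called higher without D2-13B6 replicate 3 (0.36), and turned sign and was called lower with scaling on gene-start regions (-0.40) and with loess offsets (-0.38). Tcf19 encodes a growth-associated chromatin factor and Cchcr1 a coiled-coil protein, and neither is counted among the pluripotency regulators.

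**Figure D3:**
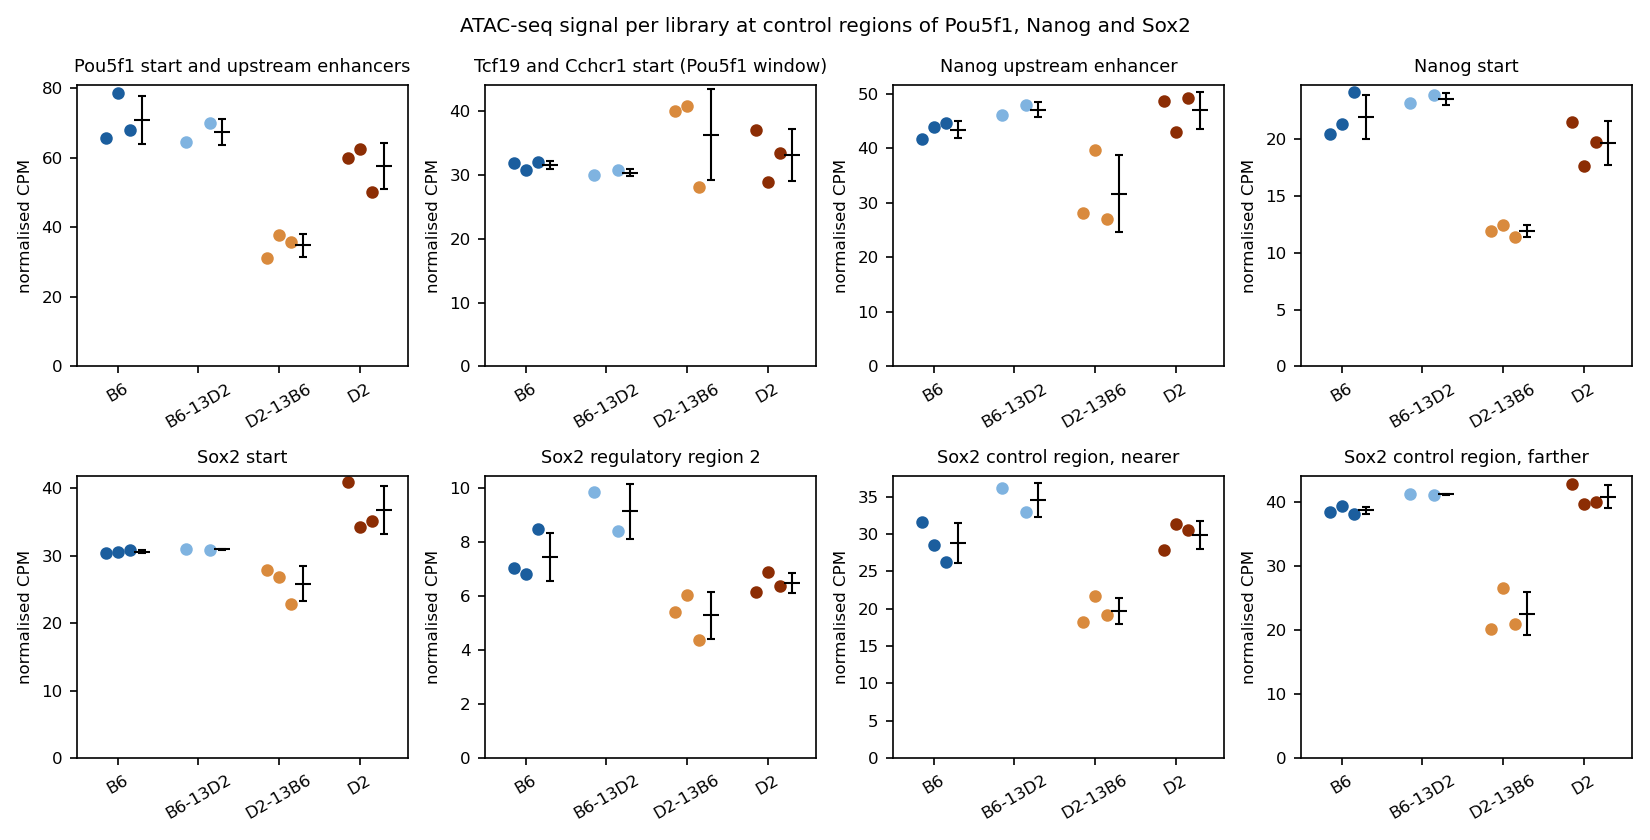
Normalised CPM of each library (points) at 8 regions of the 3 windows, with the mean and SD of each line beside the points; the axis starts at 0. The D2-13B6 points lie below all others in every panel except the Tcf19 and Cchcr1 start, where they overlap. The gap is narrow at Sox2 regulatory region 2 (highest D2-13B6 library 6.06, lowest D2 library 6.17).

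At Nanog, the promoter was less accessible in D2-13B6 than in B6, and the lower call at the upstream enhancer depended on the fit and on single libraries. The region that holds the Nanog start (ENSMUSG00000012396.12, chromosome 6 from 122705612 to 122708711, with the first coding exon) had 20.4, 21.3 and 24.2 normalised CPM across the B6 libraries, 23.2 and 23.9 in B6-13D2, 21.5, 17.6 and 19.8 in D2, and 11.9, 12.5 and 11.4 in D2-13B6. The other lines overlapped or lay close together, and D2-13B6 stood below them all. Its mean of 11.9 ± 0.54 (SD, n = 3) was 45.7% lower than the B6 mean of 22.0 ± 1.96 (SD, n = 3; -0.88 as a log2 fold change, SE 0.17, edgeR adjusted p = 8.58e-06). D2 was higher than D2-13B6 by a log2 fold change of 0.72 (SE 0.16, edgeR adjusted p = 0.000414) and did not pass the test against B6 (-0.16, SE 0.16, edgeR adjusted p = 0.544).

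The Nanog enhancer region (from 122701361 to 122704594, intergenic) changed less. It had 41.7, 43.8 and 44.6 normalised CPM across the B6 libraries, 46.1 and 48.0 in B6-13D2, 48.6, 43.0 and 49.2 in D2, and 28.2, 39.7 and 27.1 in D2-13B6. The second D2-13B6 library lay much nearer to the other lines than its 2 companions did. The log2 fold change of D2-13B6 against B6 was -0.45 (SE 0.17, edgeR adjusted p = 0.0246). This call was lost without any 1 of the B6 libraries or D2-13B6 replicate 1 (-0.48 to -0.37). It was also lost with DESeq2 (-0.38, adjusted p = 0.0514), with RLE size factors (edgeR adjusted p = 0.0945) and with only the libraries of the contrast (edgeR adjusted p = 0.174). D2 was higher than D2-13B6 by 0.57 (SE 0.17, edgeR adjusted p = 0.00772), a call lost without D2-13B6 replicate 1 (0.49) and with only the libraries of the contrast (0.55). D2 and B6 gave a log2 fold change of 0.11 (SE 0.17, edgeR adjusted p = 0.694), whose sign turned when the libraries were scaled on gene-start regions (-0.29).

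Both Nanog regions that separated D2 from B6 lay away from the start. The region at the 3′ end of Nanog (from 122714423 to 122716907) had 12.7, 15.2 and 14.1 normalised CPM across the B6 libraries, 13.8 and 15.9 in B6-13D2, 8.28, 10.1 and 9.40 in D2, and 7.04, 8.79 and 7.74 in D2-13B6. The D2 and D2-13B6 values overlapped, and both lines lay below all libraries of B6 and B6-13D2. D2 was lower than B6 by a log2 fold change of -0.59 (SE 0.17, edgeR adjusted p = 0.00560) and lower than B6-13D2 by -0.68 (SE 0.18, edgeR adjusted p = 0.00466). The call against B6 was lost without D2 replicate 1 (-0.51). The fold change against B6-13D2 was -0.58 without B6-13D2 replicate 2, which leaves that line with 1 library.

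The upstream region that holds the start of the processed pseudogene Gm10420 (from 122693813 to 122696193) had 10.8, 10.6 and 9.37 normalised CPM across the B6 libraries, 9.19 and 10.9 in B6-13D2, 6.98, 7.04 and 7.36 in D2, and 4.86, 4.52 and 5.16 in D2-13B6. The lines formed 3 separate levels here, with B6 and B6-13D2 together at the top and D2 in the middle. D2-13B6 was 52.8% lower than B6 (-1.08 as a log2 fold change, SE 0.17, edgeR adjusted p = 2.63e-07). The call of D2 against B6 (-0.52, SE 0.17, edgeR adjusted p = 0.0155) was lost without B6 replicate 1 or 2 or without D2 replicate 1 or 2 (-0.51 to -0.45). The last region of the window, downstream of the gene, was not called in any comparison.

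At Sox2, the distal control region was lower in D2-13B6 than in B6, and the start region did not pass that test. The start region (ENSMUSG00000074637.7, chromosome 3 from 34647632 to 34651818, which also covers the coding exon) begins at -2773 bp. It thus holds only the end of regulatory region 1 nearest the start. It had 30.4, 30.6 and 30.9 normalised CPM across the B6 libraries, 31.0 and 30.9 in B6-13D2, 40.9, 34.2 and 35.2 in D2, and 27.8, 26.8 and 22.9 in D2-13B6. D2 was the highest line here and D2-13B6 the lowest. D2 exceeded D2-13B6 by a log2 fold change of 0.51 (SE 0.16, edgeR adjusted p = 0.0146), a call lost without D2 replicate 1 (0.42), with RLE size factors (0.44) and with only the libraries of the contrast (0.49). Neither D2 (0.27, SE 0.16, edgeR adjusted p = 0.261) nor D2-13B6 (-0.24, SE 0.16, edgeR adjusted p = 0.241) passed the test against B6. The second of these depended on scaling, since total counts gave -0.54 and scaling on gene-start regions -0.83, both called. The first turned sign on gene-start scaling (-0.14) and with loess offsets (-0.11), called in neither.

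The Sox2 control region, the distal enhancer cluster that drives Sox2 in embryonic stem cells, was covered mainly by a pair of adjacent intergenic regions. The farther one (from 34759127 to 34763439, middle 110.9 kb downstream of the start) had 38.5, 39.3 and 38.2 normalised CPM across the B6 libraries, 41.2 and 41.1 in B6-13D2, 42.9, 39.6 and 40.0 in D2, and 20.2, 26.5 and 21.0 in D2-13B6. The other 3 lines sat close together and D2-13B6 stood apart below them. D2-13B6 was 41.6% lower than B6 (-0.78 as a log2 fold change, SE 0.17, edgeR adjusted p = 7.56e-05), and D2 was 1.81 times D2-13B6 (0.86, SE 0.16, edgeR adjusted p = 3.3e-05). The nearer one (from 34754718 to 34759030) had 31.6, 28.5 and 26.3 normalised CPM across the B6 libraries, 36.2 and 33.0 in B6-13D2, 27.8, 31.4 and 30.5 in D2, and 18.3, 21.6 and 19.1 in D2-13B6. It showed the same order with a smaller difference (-0.55, SE 0.16, edgeR adjusted p = 0.00454, D2-13B6 against B6), a call lost with only the libraries of the contrast (-0.48, edgeR adjusted p = 0.0650). The third, weaker region (from 34766356 to 34767541), between 2.31 and 3.39 normalised CPM in all 11 libraries, was called in no comparison.

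Between the gene and its control region, 3 smaller intergenic regions are given library by library. Other regions of this stretch were called in some comparisons as well and are not listed. The region from 34744160 to 34746359 (middle 94.9 kb downstream) followed the control region, with 15.2, 16.1 and 16.8 normalised CPM across the B6 libraries, 18.3 and 20.1 in B6-13D2, 14.4, 13.9 and 15.4 in D2, and 8.68, 8.76 and 7.98 in D2-13B6. It was chosen for mention after its values were seen (-0.92 as a log2 fold change for D2-13B6 against B6, SE 0.17, edgeR adjusted p = 3.9e-06). The region from 34734626 to 34735618 (middle 84.7 kb downstream) was graded instead, with 8.05, 8.17 and 7.44 in B6, 9.01 and 8.72 in B6-13D2, 5.37, 5.35 and 5.93 in D2, and 3.56, 4.09 and 4.30 in D2-13B6.

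That graded region was lower in D2-13B6 than in B6 by a log2 fold change of -0.99 (SE 0.18, edgeR adjusted p = 3.89e-06) and kept this call under every alternative tried. D2 against B6-13D2 was called as well (-0.68, SE 0.19, edgeR adjusted p = 0.00713), and leaving out a B6-13D2 library gave -0.65 and -0.70. Its calls in D2 against B6 and D2 against D2-13B6 did not survive leaving out single libraries. D2 against B6 (-0.51, SE 0.17, edgeR adjusted p = 0.0250) was lost without B6 replicate 1 or 2 or D2 replicate 1 or 2 (-0.49 to -0.41). D2 against D2-13B6 (0.48, SE 0.18, edgeR adjusted p = 0.0361) was lost without D2-13B6 replicate 1 or D2 replicate 1 or 3 (0.40 to 0.50). That last call was also lost with DESeq2, with RLE size factors (both 0.41) and with only the libraries of the contrast (0.46).

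The small region from 34739966 to 34740418 was low in both D2-background lines, with 2.96, 3.78 and 2.89 normalised CPM across the B6 libraries, 2.87 and 4.33 in B6-13D2, 1.82, 2.62 and 1.26 in D2, and 1.48, 1.91 and 1.99 in D2-13B6. D2 was lower than B6 by a log2 fold change of -0.74 (SE 0.24, edgeR adjusted p = 0.0175), a call lost without B6 replicate 2 or D2 replicate 1 or 3 (-0.70 to -0.52).

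Regulatory region 2, which carries the composite match shown above (from 34652494 to 34654463, over exons of the noncoding genes Sox2ot and Gm27611), was one of the weaker elements. It had 7.05, 6.83 and 8.49 normalised CPM across the B6 libraries, 9.87 and 8.42 in B6-13D2, 6.17, 6.88 and 6.39 in D2, and 5.43, 6.06 and 4.37 in D2-13B6. D2-13B6 was lower than B6 without overlap (-0.50 as a log2 fold change, SE 0.18, edgeR adjusted p = 0.0195), and this call was lost with DESeq2, RLE size factors or only the libraries of the contrast (all -0.42), without B6 replicate 3 or without D2-13B6 replicate 3 (-0.39 to -0.38). Over the whole Sox2 window, mean levels over the lines ran from 1.04 to 35.8 normalised CPM, and 14 of the 24 regions of the window were under 4.

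Per kb of region, levels could be compared between genes. Averaged over the 4 lines, the Nanog enhancer was the most accessible of the 35 regions at 13.1 normalised CPM per kb, above the Tcf19 and Cchcr1 start at 11.5 and the Pou5f1 start region at 10.2. This order did not hold in every line. In D2-13B6 the Tcf19 and Cchcr1 start, at 12.7, lay above the Nanog enhancer at 9.80, and in B6 the Pou5f1 start region, at 12.6, lay above the Tcf19 and Cchcr1 start at 11.1. The farther part of the Sox2 control region reached 8.30 over the lines, the Sox2 start region 7.42 and the Nanog start region 6.22. The weakest region per kb, at 2.05, was in the Sox2 window.

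Exchange of the interval on the B6 background left the 3 loci without a called region. In B6-13D2 against B6, 0 of the 35 regions were called by edgeR and 0 by DESeq2, and edgeR called 0.474% of all regions. An unadjusted edgeR p under 0.05 was found at 3 of the 35, and at 18455 of the 246840 tested regions. The log2 fold change was -0.07 at the Pou5f1 start region (SE 0.19), 0.10 at the Nanog start region (SE 0.18) and 0.02 at the Sox2 start region (SE 0.18). Fold changes were above 0 in 23 of the 24 Sox2 regions, with a median of 0.21. Of all 246840 tested regions, 120988 lay above 0, with a median of -0.01. The 24 regions are neighbours read in the same libraries, so they are not independent of each other. The largest fold change was 0.75 in a small Sox2 region at 77.5 kb downstream (SE 0.30, edgeR adjusted p = 0.473). A call that misses the threshold with 2 libraries of B6-13D2 does not show that the lines were alike.

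The interaction asked whether the change with the D2 interval was the same on both backgrounds, as the change of B6-13D2 against B6 minus the change of D2 against D2-13B6. The labels give the exchanged intervals different markers at both ends. An effect of background therefore cannot be told apart from one of the exchanged stretch or of the single line. It was called at 2 of the 35 regions, where 6.54% of all regions were called. At the Pou5f1 start region the interaction was -0.79 (SE 0.25, edgeR adjusted p = 0.0419). At the farther part of the Sox2 control region it was -0.76 (SE 0.25, edgeR adjusted p = 0.0464). In both, the D2 interval went with a log2 fold change near 0 on the B6 background (-0.07 and 0.09) and an increase on the D2 background. The Pou5f1 call was lost without any 1 of the B6 libraries, D2 replicate 1 or D2-13B6 replicate 1 (-0.84 to -0.71). The Sox2 call was lost without any of these or D2 replicate 3 (-0.78 to -0.69). Leaving out B6-13D2 replicate 1 or 2 leaves that line with 1 library. It gave -0.74 and -0.85 at Pou5f1, and -0.77 and -0.76 at Sox2. The share of the 35 regions called, 5.71%, was close to that of all regions.

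Ratios of counts between regions of the same library do not depend on the scaling. They were chosen after the values were seen and carry no test. Each has a gene-start region as its denominator. Over all gene-start regions the median log2 fold change against B6 was 0.42 in D2 and 0.64 in D2-13B6. Over all tested regions it was -0.01 and -0.13. Such ratios were not computed at other genes, so they are not shown to be particular to these loci. The Pou5f1 start region over the Tcf19 and Cchcr1 start region gave 2.06, 2.56 and 2.12 in B6, 2.16 and 2.27 in B6-13D2, 1.62, 2.16 and 1.49 in D2, and 0.782, 0.923 and 1.27 in D2-13B6. The mean fell from 2.25 ± 0.27 in B6 (SD, n = 3) to 0.99 ± 0.25 in D2-13B6 (SD, n = 3), and the libraries of these lines did not overlap. Both parts of the Sox2 control region together, over the Sox2 start region, gave 2.31, 2.22 and 2.09 in B6, 2.49 and 2.40 in B6-13D2, 1.73, 2.07 and 2.00 in D2, and 1.38, 1.79 and 1.75 in D2-13B6. The 2 B6-background lines lay above all D2-background libraries in this ratio, with the lowest B6 library just above the highest D2 library.

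The Nanog enhancer over the Nanog start went the opposite way. It was 2.04, 2.06 and 1.85 in B6, 1.99 and 2.01 in B6-13D2, 2.26, 2.44 and 2.49 in D2, and 2.36, 3.19 and 2.38 in D2-13B6. In both D2-background lines the Nanog promoter was lower relative to its enhancer, and the Sox2 control region was lower relative to the Sox2 start. Sox2 regulatory region 2 over the Sox2 start averaged (mean ± SD) 0.244 ± 0.0276 for B6 (n = 3), 0.295 ± 0.0322 for B6-13D2 (n = 2), 0.178 ± 0.0253 for D2 (n = 3) and 0.204 ± 0.0191 for D2-13B6 (n = 3).

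**Figure D4:**
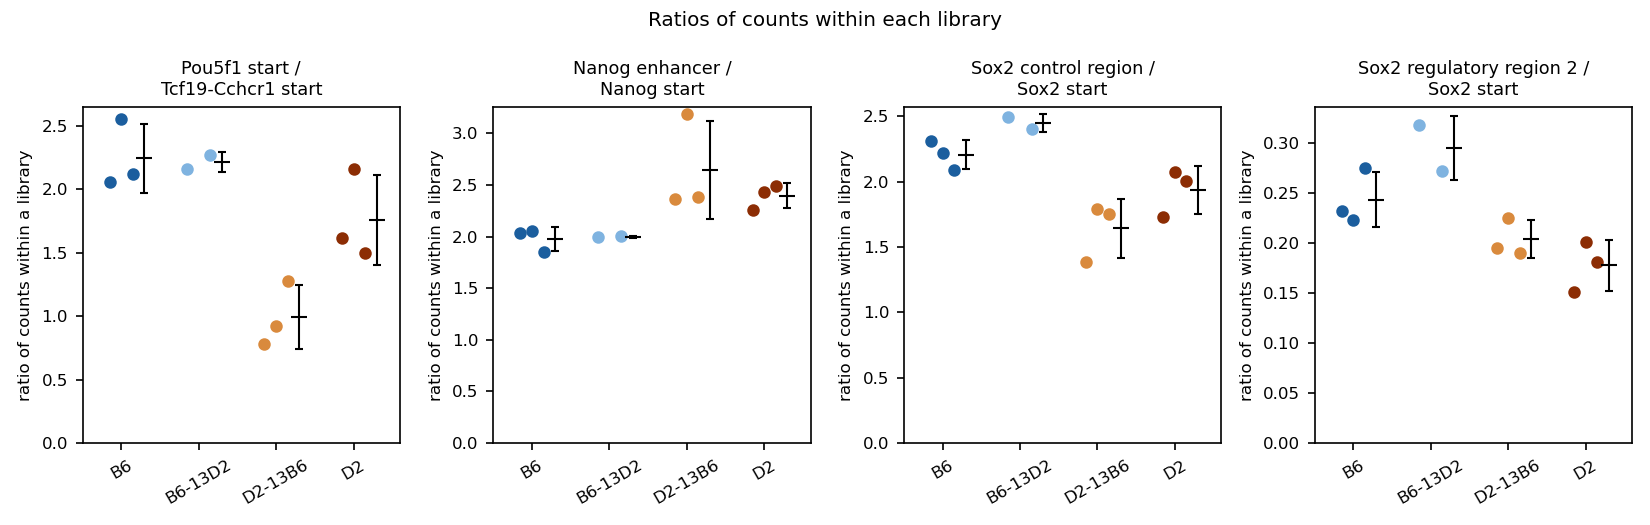
Ratio of counts between 2 regions of the same library (points), with mean and SD of each line beside them, for 4 pairs of regions. The Pou5f1 ratio averages 2.25 in B6 and 0.99 in D2-13B6, and the Nanog ratio is higher in both D2-background lines than in both B6-background lines.

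The wider pluripotency network was described by the start regions of 30 other genes, chosen for their known roles in embryonic stem cells. In D2-13B6 against B6, 18 of the 30 were lower and 7 higher, with a median log2 fold change of -0.50, where 7.41% of all gene-start regions were called lower and 64.1% higher. Those lower included Esrrb, an orphan nuclear receptor that works with Pou5f1 and Nanog (-1.32), Tcl1, an Akt coactivator (-1.32), Dppa3, a maternal factor that protects DNA methylation in the early embryo (-1.06) and Fgf4, a ligand whose gene Pou5f1 and Sox2 activate together (-0.95). Those higher included Stat3, the factor through which LIF signals (1.12), and the Krüppel-like factor Klf4 (0.80). Stat3 and Klf4 thus changed in the opposite direction to the Pou5f1 and Nanog start regions.

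In D2 against D2-13B6, 14 of the 30 start regions were higher and 1 lower, with a median of 0.39, where 4.93% of gene-start regions were called higher and 16.9% lower. Esrrb rose by a log2 fold change of 0.85 (SE 0.17, edgeR adjusted p = 4.36e-05) and Zfp42 (Rex1), a zinc-finger marker of the naive state, by 0.80 (SE 0.17, edgeR adjusted p = 0.000144). Stat3 was the 1 lower, at -0.57 (SE 0.17, edgeR adjusted p = 0.00878). In D2 against B6, 5 were higher and 4 lower with a median of 0.00, where 45.2% of gene-start regions were called higher and 1.94% lower with a median of 0.42. The highest by p were Klf5 (0.69, SE 0.18, edgeR adjusted p = 0.00217) and Tet2, a DNA demethylase (0.58, SE 0.17, edgeR adjusted p = 0.00855), and the lowest were Tcl1 (-0.66, SE 0.17, edgeR adjusted p = 0.00212) and Lin28a, an RNA-binding protein of the let-7 pathway (-0.61, SE 0.16, edgeR adjusted p = 0.00349). In B6-13D2 against B6 none of the 30 was called, where 0.103% of gene-start regions were.

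**Figure D5:**
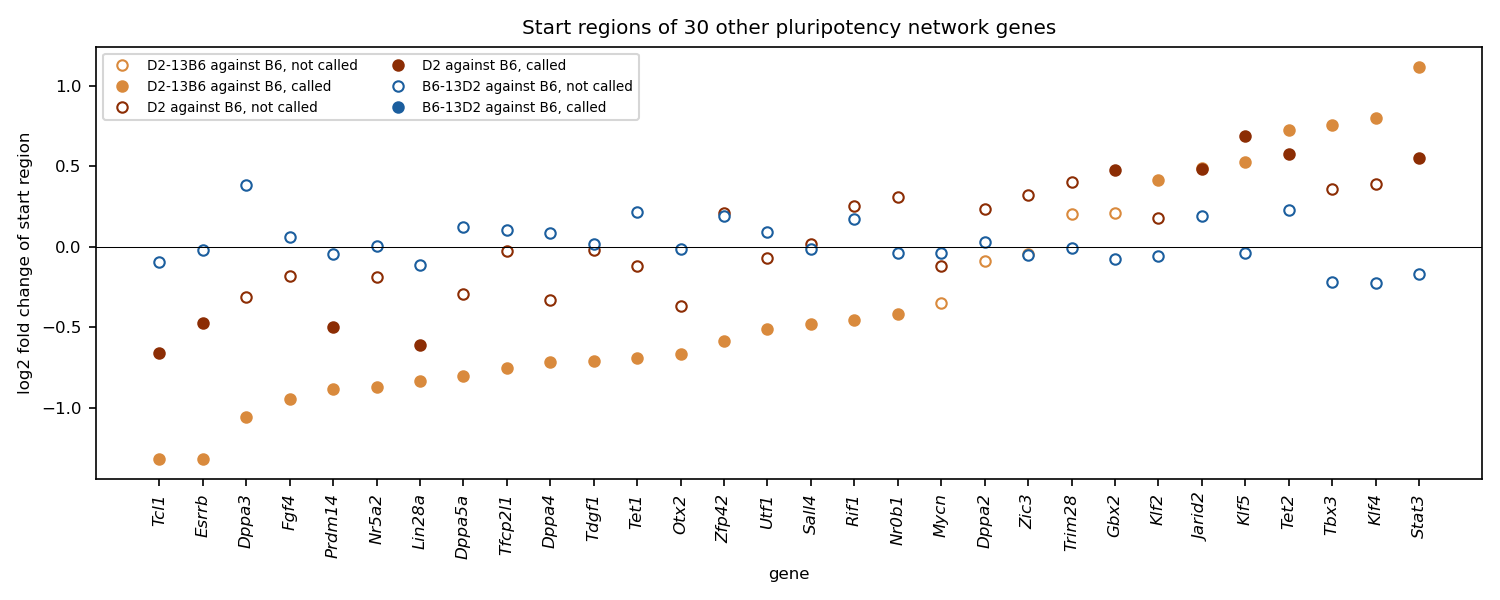
Log2 fold change against B6 of the start regions of 30 other pluripotency genes, ordered by the value in D2-13B6; filled points were called and open points were not. In D2-13B6, 18 genes lie below 0 and called, 7 above 0 and called, and no B6-13D2 point is filled.

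The start regions of marker genes were read beside the labelled cell type. All 6 primitive endoderm, 5 trophoblast, 5 primed epiblast and 3 neural markers had a start region, so having one is no check of the cell type. All 8 naive embryonic stem cell markers, the 3 core genes among them, had an accessible start region in every line, with summed levels of 333 to 345 normalised CPM across the B6 libraries, 333 to 348 in B6-13D2, 306 to 334 in D2 and 216 to 250 in D2-13B6. Of these 8, 6 were lower and 1, Klf4, was higher in D2-13B6 than in B6, and 7 were higher in D2 than in D2-13B6, beside the gene-start shares given above (7.41% lower, 64.1% higher and, for D2 against D2-13B6, 4.93% higher). The summed level of fibroblast marker starts was 45.7 to 50.7 in B6, 39.8 to 46.4 in B6-13D2, 53.0 to 61.4 in D2 and 85.3 to 113 in D2-13B6, over 5 of 6 genes with a region. Of those 5, 3 were higher in D2-13B6 than in B6, with log2 fold changes of 1.33 at Col1a1, 1.15 at Col1a2 and 0.81 at Twist2, and Thy1 (0.40) and Postn (-0.03) did not pass. That share of the fibroblast markers is close to the 64.1% of all gene-start regions called higher in this comparison. In D2 against D2-13B6, 4 of the 5 were lower, where 16.9% of gene-start regions were. Col3a1 had no region. Open chromatin at a start is not expression, and the part of other cells in the lower values of D2-13B6 at Pou5f1, Nanog and Sox2 was not tested. In a bulk sample, fewer cells with an open region and less opening per cell cannot be told apart.

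Markers of other lineages showed mixed changes. In D2-13B6 against B6, primitive endoderm had 2 higher and 2 lower of 6, trophoblast 1 higher and 2 lower of 5, primed epiblast 1 higher and 2 lower of 5, and neural genes none called of 3, where 64.1% of gene-start regions were called higher and 7.41% lower. Their summed levels overlapped between B6 and D2-13B6 in trophoblast, primed epiblast, primitive endoderm and neural genes.

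The gene starts whose values were most like those of the 3 core genes over the 11 libraries were found by the root mean square difference of centred log2 CPM, among start regions of similar level. For Pou5f1 these were Atg14 (0.0966) and 2 others over 2971 candidates, whose median difference was 0.767. For Nanog they were Tmem39a (0.0706), Dsg2 (0.0721) and 1700061G19Rik (0.0857) over 9173 candidates with a median of 0.684, and for Sox2 they were Insm2 (0.0668), 1110032F04Rik (0.0760) and Bmp7 (0.0813) over 7341 candidates with a median of 0.440. For Pou5f1 the other two were Cdx1 (0.116) and Slc6a7 (0.121). Atg14 had a mean of 41.4 normalised CPM for B6, 39.0 in B6-13D2, 33.8 in D2 and 19.8 in D2-13B6. It was chosen for likeness to Pou5f1 over these same libraries, so the shared order of lines follows from the choice.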

How the data were processed

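The authors deposited a table of raw counts per region for 11 ATAC-seq libraries, with duplicate and mitochondrial reads removed and alignments sorted, per the file headers. The submitters' processing notes list Trimmomatic 0.39, BWA 0.7.5, Picard 2.0.1, MACS 1.4.2, edgeR 3.34.1 and mm10, without roles. How multiply mapping reads and the transposase offset were handled is not given in the sources used here. Region ends lay within the GRCm38 chromosomes.

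Counts were tested in R 4.3.3 with edgeR 4.0.16 (quasi-likelihood test, TMM, filterByExpr, robust, with all 11 libraries in a single model that has 1 term per line), with Benjamini-Hochberg adjustment over 246840 regions and a threshold of 0.05, and DESeq2 1.42.0 as an alternative. The script was checked on simulated data. Log2 CPM used a prior count of 2. Gene starts and exons came from GENCODE M21, and a start region held a start or lay within 1000 bp. Libraries of a line differed by more than counting noise in every pair.

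Regions given library by library were those at the starts, at the known enhancers, and the called region with the smallest p in each window and comparison, plus 3 regions said to be chosen after their values were seen. Of the network genes, the 2 with the smallest p per direction were named for D2 against B6 and D2 against D2-13B6; those named for D2-13B6 against B6 were picked after seeing values. The members, lists and tests were chosen with earlier results of these data known.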

Additional observations from a re-analysis of the deposited data

Results flagged for a closer look

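At 2 regions the change with the D2 interval differed between the pair of lines on the B6 background and the pair on the D2 background, by the test of the difference itself. The Pou5f1 region that starts at 35501875 had an interaction log2 fold change of -0.79, and the Sox2 control region part that starts at 34759127 had -0.76. Neither call was made with the size factors of the RLE method, and the libraries on which they rest are named beside the result.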

How the results depend on the processing

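Counts of called regions among the 35 moved most with the scaling and with a minimum fold of 1.5. The minimum fold left 1 of 5 in D2 against B6, 0 of 12 in D2 against D2-13B6, 4 of 17 in D2-13B6 against B6, 0 of 5 in D2 against B6-13D2 and 0 of 2 in the interaction. Of all regions it left 5.93%, 6.87%, 19.6%, 5.56% and 0.395% called, in the same order. Fitting only the libraries of the contrast gave 8, 7 and 8 in D2 against B6, D2 against D2-13B6 and D2 against B6-13D2, beside 27.2%, 21.6% and 22.9% of all regions. Total counts gave 27 in D2-13B6 against B6, 12 in D2 against B6-13D2 and 9 in the interaction, beside 51.5%, 20.7% and 7.86% of all regions. RLE size factors gave 0 in the interaction, where 6.57% of all regions were called. Of the alternatives added after seeing the data, TMM factors from gene-start regions gave 21 in D2 against B6, 33 in D2-13B6 against B6, 22 in D2 against B6-13D2 and 7 in the interaction, where 31.1%, 60.7%, 25.3% and 4.43% of all regions were called under that scaling. Loess offsets on abundance gave 15, 16 and 8 in D2 against B6, D2 against B6-13D2 and the interaction, where 23.1%, 19.5% and 8.79% of all regions were called. The cause was not tested.

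Leaving out 1 library of B6, D2 or D2-13B6 gave 1 to 5 calls in D2 against B6, where 16.8% to 20.9% of all regions were called. D2 against D2-13B6 had 8 to 13 calls, where 18% to 27.9% of all regions were called. D2-13B6 against B6 had 14 to 19, where 35.9% to 43.9% were. D2 against B6-13D2 had 3 to 4, where 14.6% to 17.9% were. The interaction had 0 to 3, and B6-13D2 against B6 had 0 throughout. In the interaction, 3.62% of all regions were called without B6 replicate 1 and 11.7% without D2-13B6 replicate 3. The replicate numbers did not pair the libraries (15 correlations of same-numbered deviations, -0.0486 to 0.0683), and a replicate block gave 1 call in the interaction and 7, 13, 17 and 6 in D2 against B6, D2 against D2-13B6, D2-13B6 against B6 and D2 against B6-13D2. With that block 5.73%, 23.3%, 24.6%, 42.2% and 20.2% of all regions were called, in the same order. DESeq2 made 1 higher and 6 lower calls in D2 against B6, where it called 19.9% of all regions and 7.81% lower. Counting regions that overlap a window rather than start in it added 2 lower calls to the 12 higher in D2 against D2-13B6.

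Of 1196 log2 fold changes of named regions under an alternative, 995 kept direction and side of the threshold, 146 kept only the direction, 49 turned sign with neither value called and 6 turned sign with 1 of the values called. Fits that left B6-13D2 with 1 library are among the 1196. The 6 were in D2 against B6, at 3 regions under gene-start scaling and under loess offsets: the Nanog enhancer region at 122701361 (-0.29 and -0.32) and the Sox2 control region parts at 34754718 (-0.35 and -0.29) and 34759127 (-0.33 and -0.32). Total counts turned the sign at the same 3 regions without a call (-0.01, -0.08 and -0.05), and the Sox2 start region at 34647632 turned without a call under the other two (-0.14 and -0.11). Depth limits the 14 Sox2 regions under 4 normalised CPM, where a library can hold as few as 18 counts.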
